A study of Mus musculus with 60 samples.

Results

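Primary cortical cultures carrying a scrambled control (SC) siRNA and no BDNF were compared between DIV3 and DIV5 (days in vitro). The comparison rests on 7 of the 48 cortex libraries (60 libraries in the whole series), 3 at DIV3 (cultures 1 to 3) and 4 at DIV5 (cultures 1 to 4), chosen by siRNA, day and the absence of BDNF. All 7 are wild type mouse cortical neurons that the labels place at embryonic day 18, grown in neurobasal medium with a neuronal supplement, and given SC siRNA at DIV2, so every DIV3 library had carried the siRNA for less time than every DIV5 library. Other groups entered only for reference, namely SC siRNA with 20 ng/ml BDNF (3 libraries at DIV3, 4 at DIV5), paxillin siRNA without BDNF (5 at DIV3, 6 at DIV5), SC siRNA at DIV10 (3 libraries) and cortex of E15 (2 libraries). SC siRNA is a sequence with no intended target, and BDNF is a secreted neurotrophin that acts through the receptor TrkB. The culture number is the digit that the labels attach to the control. They do not say whether it marks a dissection, a dish or a day. Libraries with the same number on both days therefore need not come from 1 culture. The adjusted p-values measure the spread between libraries of a group, pooled over the 48 cortex libraries, which may be technical. The embryonic day is that of the labels, although a written description of the mouse cultures names E15 and the written culture method is for rat embryos.

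Embryonic cortical neurons extend axons and dendrites during the first days in a dish and later assemble synapses. Radial glia and glial progenitors come along in the dissection. They continue to divide and produce astrocytes and cells of the oligodendrocyte lineage, whereas cells of vessels, meninges and blood are usually lost with time. A gene's level in RNA of the whole dish follows both the makeup of the dish and the RNA of each cell, and fewer cells of a type and less RNA per cell cannot be told apart here.

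Levels are TPM, the abundance of a gene's transcripts among all transcripts of a library after correction for length, and differences are DIV5 minus DIV3 on the log2(TPM + 1) scale with their standard error (SE). This scale understates the change of genes near 0. Each library held between 21678 and 22473 genes above 0 TPM. The 50 most abundant genes took 22.8% to 23.1% of the TPM at DIV3 and 18.7% to 21.6% at DIV5. Neuron markers were present throughout, and their summed level ran from 2932 to 3916 TPM at DIV3 and from 1187 to 2868 TPM at DIV5. Among them Tubb3 alone had a mean of 2601 TPM at DIV3 and 1099 TPM at DIV5. The median difference of the 8 markers was -0.04. The DIV5 library of culture 3 stood apart. It differed from the DIV3 library of culture 3 by more than 2-fold in 406 genes, against 1240 genes in culture 1 and 1818 genes in culture 2. On the first principal component, with 61.7% of the variance of the 7 libraries, it lay at -22.4, on the side of the DIV3 libraries (-43.9 to -28.4) and away from the other DIV5 libraries (27.98 to 53.5). The column names also carry library numbers. DIV3 cultures 1 and 2 have the numbers 66 and 67, while DIV3 culture 3 and all 4 DIV5 libraries have numbers from 1 to 11. The range of library numbers and the day can be separated only through DIV3 culture 3. Within the range shared by both days, DIV3 is culture 3 alone and DIV5 is all 4 libraries. There the day cannot be told apart from the culture. Differences given below for that range rest on DIV3 culture 3 alone at DIV3 and do not show that a call holds there.

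More genes rose than fell between DIV3 and DIV5. Among 14250 genes tested, 1139 were higher at DIV5 (7.99%) and 211 were lower (1.48%) at an adjusted p below 0.05 in limma, fitted to all 48 cortex libraries. The median difference of all genes was 0.11, and after rescaling by median-ratio size factors, which brought it to -0.02, the split was 739 higher and 473 lower. For 2281 genes (16%) all 4 DIV5 libraries lay above all 3 DIV3 libraries, and for 624 genes (4.38%) all lay below. The calls depend on fitting the libraries of the other groups, which also enter the estimate of the spread, together with these 7. The median over genes of the SD on the log2 scale was 0.29 pooled over all groups. It was 0.16 in the SC siRNA libraries at DIV3 and 0.26 in those at DIV5. A fit of the 7 libraries alone called 0 genes, with a smallest adjusted p of 0.0502 and 3288 genes at an unadjusted p under 0.05. The full fit had 3350 such genes. Without DIV5 culture 3 the count was 2374, and without DIV3 culture 1, DIV3 culture 2, DIV5 culture 2 or DIV5 culture 4 it was 678, 661, 594 or 648. With DIV3 culture 3 as the sole DIV3 library, so that all library numbers came from 1 range and the lone library was assumed to vary like the other groups, 101 genes passed (93 higher, 8 lower), 96 of them among the 1350. In that fit at most 2 members of any of the 24 gene lists passed.

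The 8 largest rises included Bcas1 and Gpr17 of the oligodendrocyte lineage markers and Gja1 of the astrocyte markers. Bcas1 (chr2:170343973-170427911, GRCm38.p6), a gene of newly formed oligodendrocytes, was at 5.21, 4.298 and 0.620 TPM in DIV3 cultures 1 to 3 and at 41.2, 110.4, 16.1 and 165 TPM in DIV5 cultures 1 to 4. Each DIV5 library lay above each DIV3 library, and the lowest DIV5 value came from culture 3. The difference was 4.01 ± 0.89 (adjusted p = 0.00318). Gpr17 (chr18:31942999-31949890), a receptor of committed oligodendrocyte precursors, was at 263, 239 and 43.9 TPM at DIV3 and at 2586, 4907, 282 and 4694 TPM at DIV5, a difference of 3.84 ± 1.09 (adjusted p = 0.0198). Here DIV5 culture 3 was little above DIV3 cultures 1 and 2. Myrf (chr19:10208271-10240777), the transcription factor that switches on myelin genes, was at 1.53, 1.62 and 0.422 TPM and then at 16.8, 52.3, 6.44 and 60.1 TPM, and rose by 3.60 ± 0.87 (adjusted p = 0.00607). Bmp4 (chr14:46383525-46390669), a secreted ligand of the BMP family, was at 2.97, 1.900 and 0.443 TPM and then at 29.3, 86.3, 9.13 and 98.9 TPM (3.99 ± 0.95, adjusted p = 0.00557). In all 4 genes culture 3 had the lowest value on both days.

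The other genes of this group rose by similar amounts. Gja1 (chr10:56377300-56390419), the gap junction protein connexin 43 of astrocytes, was at 22.7, 22.1 and 16.5 TPM at DIV3 and at 305, 682, 40.1 and 591 TPM at DIV5, a rise of 3.65 ± 0.74 (adjusted p = 0.00148). The DIV5 values of cultures 1, 2 and 4 were many times that of culture 3, which still lay above DIV3. Plxnb3 (chrX:73756556-73772510), a semaphorin receptor, rose by 3.75 ± 0.99 (adjusted p = 0.0115), Entpd2 (chr2:25395874-25401323), an ecto-enzyme that breaks down extracellular ATP, by 3.36 ± 0.89 (adjusted p = 0.0119), and Fam107a (chr14:8296270-8317607) by 3.35 ± 1.04 (adjusted p = 0.034). Of the 8, Bcas1, Bmp4, Gja1 and Myrf passed in each refit without 1 of the 7 libraries. The calls of Gpr17 (adjusted p 0.0839 to 0.128), Plxnb3 (0.0555 to 0.0692) and Entpd2 (0.0547 to 0.121) were lost without DIV3 culture 3, DIV5 culture 2 or DIV5 culture 4, and that of Fam107a (0.0744 to 0.114) without any library but DIV5 culture 3. Within the range of library numbers shared by both days, culture 3 was the sole DIV3 library. Bcas1 and Entpd2 both differed by 5.22 there, against 3.40 and 3.76 between the libraries numbered 3. The other 6 differed by 3.93 (Gja1) to 5.49 (Gpr17), and the day and the culture cannot be told apart in that fit.

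**Figure D1:**
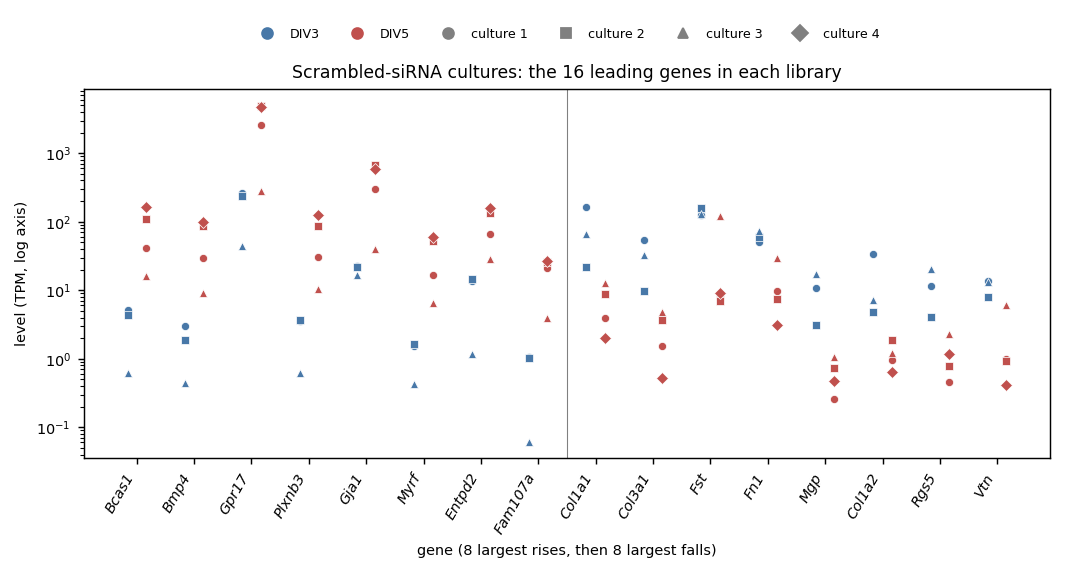
Level of the 16 leading genes in each of the 7 SC siRNA libraries (TPM, log axis), with DIV3 in blue, DIV5 in red and a marker shape for each culture. On the left the DIV5 triangles of culture 3 are the lowest DIV5 points, for example 40.1 TPM for Gja1 against 305 TPM or more in the other cultures, and on the right the Fst triangle of culture 3 at DIV5 (123 TPM) sits beside the DIV3 points.

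Most astrocyte markers rose. Of 12 tested, 8 were higher at DIV5 (against 7.99% of all genes), 0 were lower and 4 were not past the threshold, with a median difference of 2.27 against 0.11 for all genes. Ntsr2, a neurotensin receptor of astrocytes, was at 5.92, 4.32 and 4.16 TPM at DIV3 and at 44.8, 78.8, 28.01 and 50.5 TPM at DIV5. It rose by 3.07 ± 0.50 (adjusted p = 0.000206). Its rise was 3.23 within the shared range of library numbers, against 2.49 between the libraries numbered 3. Its groups lay far apart, and the lowest DIV5 value was again that of culture 3. Apoe, the main lipid carrier of the brain, was at 774, 758 and 369 TPM and then at 2669, 4921, 1217 and 5428 TPM (2.34 ± 0.60, adjusted p = 0.00884). Aldoc, an astrocytic glycolytic enzyme, rose by 2.14 ± 0.55 (adjusted p = 0.0101), and Slc1a3, a glutamate transporter, by 1.99 ± 0.45 (adjusted p = 0.00352). Gfap, the intermediate filament of astrocytes, was at 398, 375 and 28.1 TPM and then at 2499.9, 4292, 508 and 5053 TPM. Its groups did not overlap, and its difference of 3.81 ± 1.37 had an adjusted p of 0.0705. Aqp4, the astrocytic water channel, did overlap, with 64.7, 64.98 and 6.27 TPM against 399, 613, 37.2 and 1054 TPM (3.32 ± 1.38, adjusted p = 0.126). The call of Apoe was lost without DIV3 culture 3 or DIV5 culture 4 (adjusted p 0.0507 to 0.0629) and that of Aldoc without DIV3 culture 3 (0.0702). Within the shared range of library numbers the count of 8 was 2, with a median of 3.14, and the calls of Apoe (0.0869) and Aldoc (0.0878) were lost.

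Oligodendrocyte lineage markers were higher in 5 of 12 (against 7.99% of all genes), lower in 0 and not past the threshold in 7, with a median difference of 2.10. Besides Bcas1 and Gpr17 the higher ones included Cnp, an enzyme of non-compact myelin, with a rise of 3.10 ± 0.73 (adjusted p = 0.0048) and Sox10, the lineage transcription factor, with 2.61 ± 0.69 (adjusted p = 0.0115). The precursor receptor Pdgfra differed by 1.34 ± 0.87 (adjusted p = 0.377) and the early lineage factor Olig2 by 1.29 ± 0.61 (adjusted p = 0.192). The myelin gene Mbp was at 3.69, 3.39 and 1.600 TPM and then at 8.23, 19.8, 11.3 and 41.5 TPM (2.24 ± 0.86, adjusted p = 0.094). Mog, which marks the outer face of mature myelin, was at 9.67, 11.95 and 13.9 TPM at DIV3 and at 9.92, 9.76, 12.3 and 11.4 TPM at DIV5, with overlapping groups (-0.11 ± 0.37, adjusted p = 0.91). The count of 5 fell to 2 without DIV3 culture 3, DIV5 culture 2 or DIV5 culture 4, and to 1 within the shared range of library numbers.

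Summed over each list, astrocyte markers went from 720 to 1786 TPM at DIV3 to 2714 to 14686 TPM at DIV5, and oligodendrocyte lineage markers from 964 to 2059 TPM to 2019 to 10785 TPM. The lowest DIV5 value of each list was that of culture 3, and for the oligodendrocyte lineage it overlapped DIV3. For reference, E15 cortex held 740 to 1296 TPM of astrocyte and 385 to 589 TPM of oligodendrocyte lineage markers, and SC siRNA cultures at DIV10 held 11886 to 23922 and 2515 to 7595 TPM. Microglia markers, for the immune cells that enter the brain early, were at 53.8 to 85.6 TPM at DIV3 and at 70.7 to 177 TPM at DIV5, and 0 of 8 tested passed in either direction (median 0.61), with C1qa at 30.3, 20.04 and 23.7 TPM and then 26.5, 59.4, 21.8 and 49.5 TPM. Red blood cell markers summed to at most 8.31 TPM in the 7 libraries, against 883 to 1381 TPM at E15, and 0 of 4 passed (median -0.52).

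**Figure D2:**
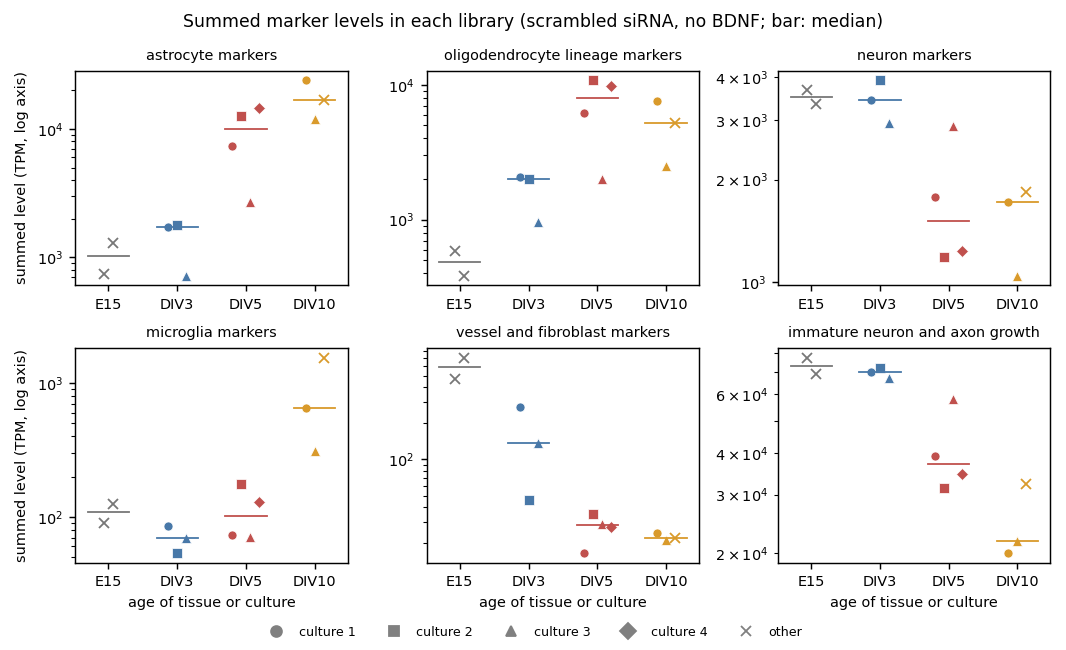
Summed level of 6 gene lists in each SC siRNA library without BDNF and in E15 cortex (TPM, log axes), with a bar at each median and a marker shape for each culture number. Astrocyte markers had a median of 1707 TPM at DIV3 and 10018 TPM at DIV5, and vessel and fibroblast markers ran from 46.0 to 273 TPM at DIV3 and from 16.7 to 34.9 TPM at DIV5.

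The 8 largest falls included 4 vessel and fibroblast markers. Col1a1 (chr11:94936224-94953042), a chain of type I collagen, was at 162, 21.6 and 67.1 TPM at DIV3 and at 3.89, 8.92, 12.6 and 1.99 TPM at DIV5, a difference of -3.24 ± 0.90 (adjusted p = 0.0173). DIV3 culture 2 held far less than cultures 1 and 3, but more than any DIV5 library. Rgs5 (chr1:169655501-169695813), a pericyte gene, was at 11.5, 4.08 and 20.5 TPM and then at 0.464, 0.772, 2.33 and 1.17 TPM, and its difference of -2.41 ± 0.45 had the smallest adjusted p of the 8 (0.000684). Within the shared range of library numbers Rgs5 differed by -3.37 and Mgp by -3.49, against -2.69 and -3.14 between the libraries numbered 3. The other 6 differed there by -1.97 (Col1a2) to -3.42 (Col3a1). Mgp (chr6:136872435-136875823), a matrix protein that inhibits calcification, differed by -2.57 ± 0.53 (adjusted p = 0.00179). Col3a1 (chr1:45311538-45349706) and Col1a2 (chr6:4505618-4541543), further fibrillar collagens, differed by -3.10 ± 0.78 (adjusted p = 0.00834) and -2.49 ± 0.79 (adjusted p = 0.0385). Of 8 vessel and fibroblast markers tested out of 11 listed, 4 were lower (against 1.48% of all genes) and 0 higher, with a median of -1.40. These 4 were the collagens and Rgs5, while the endothelial markers Cldn5 (0.38, adjusted p = 0.747) and Kdr (0.37, adjusted p = 0.167) and the pericyte receptor Pdgfrb (0.84, adjusted p = 0.222) were not past the threshold. The count of 4 fell to 1 without DIV3 culture 1 or within the shared range of library numbers and to 2 without DIV3 culture 3 or DIV5 culture 4. The call of Col3a1 was lost without DIV3 culture 1 (adjusted p = 0.0817), and those of Col1a1 (0.0546 to 0.146) and Col1a2 (0.0559 to 0.290) without DIV3 culture 1, DIV3 culture 3 or DIV5 culture 4, for Col1a2 also without DIV5 culture 1 or 2.

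The other 3 of the 8 were Fst, Fn1 and Vtn. Fst (chr13:114452262-114458989), follistatin, a secreted inhibitor of activin, was at 126, 157 and 130.4 TPM at DIV3 and at 8.56, 6.94, 123 and 9.21 TPM at DIV5. Cultures 1, 2 and 4 were far below DIV3 at DIV5, whereas culture 3 was just under the lowest DIV3 library. The difference was -2.97 ± 0.66 (adjusted p = 0.00316), and -3.95 without the culture 3 libraries of both days. Fn1 (chr1:71585473-71653280), fibronectin, was at 50.9, 59.9 and 74.1 TPM and then at 9.75, 7.38, 29.997 and 3.09 TPM (-2.58 ± 0.67, adjusted p = 0.0102). Vtn (chr11:78499120-78502325), vitronectin, was at 13.4, 8.02 and 13.1 TPM and then at 0.988, 0.925, 6.15 and 0.415 TPM, a difference of -2.29 ± 0.65 (adjusted p = 0.0202). Culture 3 had the highest DIV5 value of both. The call of Fn1 was lost without DIV5 culture 4 (adjusted p = 0.0687) and that of Vtn without any library but DIV3 culture 2 or DIV5 culture 3 (0.0520 to 0.0894).

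Genes of immature neurons and axon growth fell in 6 of 18 (against 1.48% of all genes), with 0 higher and a median of -0.58. Tubb3, the neuronal beta tubulin, was at 2775, 2934 and 2095 TPM at DIV3 and at 1112, 641, 1929 and 713 TPM at DIV5 (-1.37 ± 0.37, adjusted p = 0.0133). Stmn1, a microtubule-destabilising phosphoprotein, was at 4666, 5049.5 and 3965 TPM and then at 2235, 1559, 3806 and 1770.1 TPM (-1.04 ± 0.26, adjusted p = 0.00873). In both, DIV5 culture 3 was the highest DIV5 library and lay just under the lowest DIV3 library. Tuba1a, the main alpha tubulin of growing neurons, differed by -1.04 ± 0.33 (adjusted p = 0.0379), and Sox11, a transcription factor of newborn neurons, by -1.02 ± 0.31 (adjusted p = 0.031). The summed level of the 18 genes went from 67007 to 71715 TPM at DIV3 to 31412 to 58079 TPM at DIV5, with 20088 to 32296 TPM at DIV10. Astrocyte and oligodendrocyte markers rose in the same libraries, and their part in this fall was not tested. The count of 6 was 2, 0 and 3 without DIV3 culture 1, 2 or 3, and 0 and 1 without DIV5 culture 2 or 4. It was 3 with no filter on low values and 0 within the shared range of library numbers. Calls were lost for Tubb3 without DIV3 culture 1 or 2 or DIV5 culture 2 or 4 (adjusted p 0.0631 to 0.0787), for Stmn1 without DIV3 culture 2 or DIV5 culture 2 (0.0571 to 0.0604), and for Tuba1a (0.0730 to 0.142) and Sox11 (0.0647 to 0.173) without any library but DIV5 culture 3.

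Transcription factors of cortical projection neurons were lower in 3 of 14 (against 1.48% of all genes), with 0 higher and a median of -0.53. Neurod6 was at 1162, 2008 and 1788 TPM at DIV3 and at 193, 225, 1319 and 436 TPM at DIV5 (-2.01 ± 0.67, adjusted p = 0.0477). Neurod2 was at 763, 1075 and 1198 TPM and then at 264, 244, 757 and 243 TPM, so that culture 3 was far above the other DIV5 libraries (-1.59 ± 0.44, adjusted p = 0.0157). The list had 1 call without DIV3 culture 1, 0 without DIV3 culture 2 or 3 or DIV5 culture 2 or 4, and 5 without DIV5 culture 3 or after rescaling by size factors. Within the shared range of library numbers it had 0. The calls were lost for Neurod6 without any library but DIV5 culture 3 (adjusted p 0.0807 to 0.176) and for Neurod2 without DIV3 culture 2 or 3 or DIV5 culture 2 or 4 (0.0676 to 0.0712).

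Among 14 progenitor and neurogenic genes, Sox2 was higher (7.99% of all genes were) and Eomes and Neurod1 were lower (1.48% of all genes), with a median of 0.44. Without DIV5 culture 3 the higher ones were 3, and without DIV3 culture 3 they were 2. Eomes (Tbr2), which marks intermediate progenitors, was at 14.2, 13.1 and 19.2 TPM at DIV3 and at 2.14, 1.897, 7.98 and 6.09 TPM at DIV5 (-1.73 ± 0.40, adjusted p = 0.00428), after 154 ± 12.02 TPM (SD, n = 2) at E15. Sox2, a factor of radial glia and of later glia, was at 466, 374 and 279 TPM and then at 960.2, 1340.4, 669 and 1378 TPM (1.51 ± 0.30, adjusted p = 0.0012). Within the shared range of library numbers Sox2 differed by 1.90 and Eomes by -2.04. The calls of Eomes and Sox2 held without any 1 library, which does not separate the day from that range. Neurod1 differed by -1.09 ± 0.30 (adjusted p = 0.0172), a call lost without DIV3 culture 1 or 2 or DIV5 culture 2 or 4 (0.0695 to 0.123). Of 20 cell division genes, 0 passed in either direction and the median was 0.02. The medians between the libraries numbered 1, 2 and 3 were -0.48, -0.45 and 0.54, and Pcna, the sliding clamp of DNA synthesis, was at 203, 205 and 187 TPM at DIV3 and at 155, 149, 231 and 296 TPM at DIV5. Both this list's median and Pcna were higher at DIV5 between the libraries numbered 3, and lower between those numbered 1 or 2.

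The counts of called synaptic and channel genes were near the shares of all genes, of which 7.99% were higher and 1.48% lower. Of 20 genes of synaptic vesicles and release, Syn2 and Sv2b were higher and 0 were lower (median 0.17). Syn2, synapsin II, which tethers vesicles, was at 4.91, 5.16 and 4.83 TPM at DIV3 and at 14.5, 12.7, 9.69 and 11.7 TPM at DIV5. The DIV3 values were close together and every DIV5 value was well above them, with a difference of 1.13 ± 0.17 (adjusted p = 6.64e-05). It was 1.16 within the shared range of library numbers. Of 21 glutamate receptor and postsynaptic density genes, Camk2a, the alpha subunit of the calcium/calmodulin kinase II, was higher and 0 were lower (median 0.08). It was at 17.4, 13.2 and 20.6 TPM and then at 142, 78.7, 45.4 and 28.6 TPM (1.82 ± 0.39, adjusted p = 0.00258), with 312 ± 143 TPM (SD, n = 3) at DIV10. Among 18 voltage-gated channel genes, the potassium channel Kcna2 was higher (33.8, 30.8 and 32.4 TPM, then 61.5, 68.5, 54.003 and 85.1 TPM, 1.02 ± 0.22, adjusted p = 0.00225) and 0 were lower (median 0.33), with 2 higher without DIV5 culture 3. Syn2, Camk2a and Kcna2 passed in every refit without 1 library. These refits do not separate the day from the range of library numbers. Within the shared range, with 1 DIV3 library, Camk2a differed by 1.54 and Kcna2 by 1.01. These are effect sizes only and do not show that the calls hold there. Sv2b, another vesicle protein, differed by 1.54 ± 0.51 (adjusted p = 0.0486), a call lost without any library but DIV5 culture 3 (0.0618 to 0.195).

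Of 13 genes of GABA receptors and chloride transport, 0 passed (median 0.28). Slc12a5, the chloride exporter KCC2 that makes GABA inhibitory, was at 37.3, 31.9 and 31.1 TPM at DIV3 and at 141, 88.1, 55.2 and 40.3 TPM at DIV5, with no overlap, and its difference of 1.10 ± 0.41 had an adjusted p of 0.0779 (0.0461 without DIV5 culture 3 and 0.0491 without DIV5 culture 4). Of 14 neurofilament, spectrin and axon initial segment genes, Map1a alone was higher and 0 were lower (median -0.15). That share was near the 7.99% of all genes that were higher. Map1a, a microtubule-associated protein of mature dendrites and axons, was at 286, 222 and 282 TPM and then at 809, 592, 473 and 429 TPM (1.09 ± 0.33, adjusted p = 0.0277). That call was lost without DIV3 culture 1, 2 or 3 or DIV5 culture 1 or 2 (0.0555 to 0.141). Of 14 GABAergic interneuron genes 0 passed (median 0.80). Of 8 neuron markers Tubb3 was lower (1.48% of all genes were) and 0 were higher (median -0.04).

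**Figure D3:**
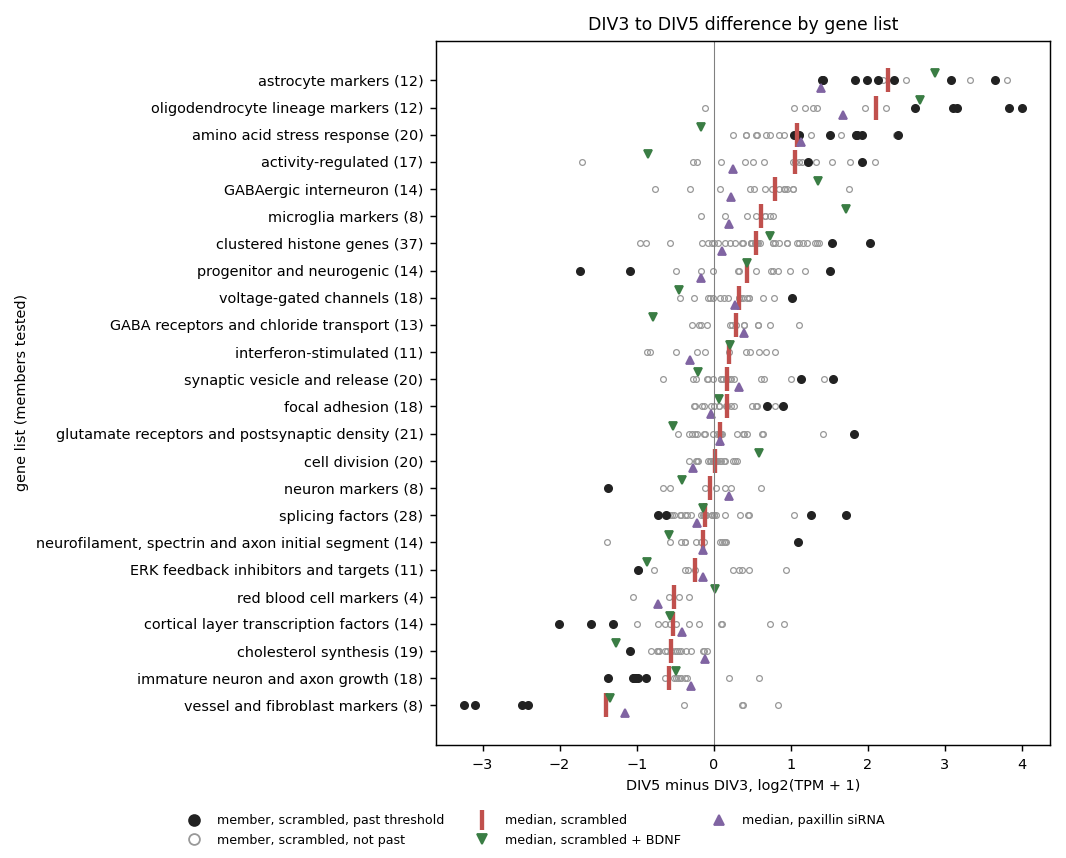
DIV5 minus DIV3 difference on the log2(TPM + 1) scale for each tested member of 24 gene lists in SC siRNA cultures (filled points passed the adjusted threshold), with the median of each list for SC siRNA (red bar), SC siRNA with BDNF (green) and paxillin siRNA (purple). Medians run from 2.27 for astrocyte markers to -1.40 for vessel and fibroblast markers. The green triangle lies on the other side of 0 from the red bar for the amino acid stress response (-0.16 against 1.07) and activity-regulated genes (-0.85 against 1.05). It also does so for the lists of synaptic vesicles (-0.20 against 0.17), glutamate receptors (-0.53 against 0.08) and GABA receptors (-0.79 against 0.28). The same holds for voltage-gated channels (-0.45 against 0.33) and red blood cell markers (0.02 against -0.52).

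Of 10 genes that the study discusses, 0 passed the threshold between these days at the level of whole genes. Pxn (chr5:115491970-115555987), paxillin, was at 9.16, 9.65 and 11.7 TPM at DIV3 and at 13.1, 19.9, 12.4 and 16.4 TPM at DIV5. All DIV5 values lay above all DIV3 values, the difference was 0.54 ± 0.21 (adjusted p = 0.092 in limma), and a 2-sided exact permutation test of the 7 libraries gave p = 0.0571, where the smallest p the design allows is 0.0286. Without DIV5 culture 3 the adjusted p was 0.0437. Snap25, a SNARE protein of vesicle fusion, was at 26.4, 33.9 and 27.8 TPM and then at 43.05, 32.3, 35.3 and 27.8 TPM (0.22 ± 0.23, adjusted p = 0.633). The glutamate receptors Grin1 (0.39 ± 0.45, adjusted p = 0.679) and Grm5 (0.43 ± 0.30, adjusted p = 0.42) and the ankyrins Ank2 (0.13 ± 0.34, adjusted p = 0.877) and Ank3 (-0.13 ± 0.28, adjusted p = 0.85), which anchor membrane proteins to spectrin, were not past the threshold. The sign of Ank2 turned after rescaling by size factors (-0.01).

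Of 28 splicing factors, Qk and Mbnl2 were higher, a share near the 7.99% of all genes, and Khdrbs3 and Rbfox1 were lower (against 1.48%), with a median of -0.11. After rescaling by size factors, 2 were higher and 7 lower, and without DIV5 culture 3 it was 3 and 6. The lower ones were 0 without DIV5 culture 2, 4 without the culture 3 libraries of both days and 1 without any 1 of the other libraries. Qk, a factor of glia, was at 31.5, 33.9 and 25.8 TPM at DIV3 and at 83.7, 127, 51.2 and 196 TPM at DIV5 (1.72 ± 0.33, adjusted p = 0.000828). It differed by 1.94 within the shared range of library numbers. Astrocyte and oligodendrocyte lineage markers moved with it in the same libraries, and their part in its rise was not tested. Mbnl2, a muscleblind factor of late developmental splicing, was at 1.62, 1.47 and 1.79 TPM and then at 5.29, 6.04, 3.16 and 7.45 TPM (1.26 ± 0.22, adjusted p = 0.000487). Within the shared range of library numbers Mbnl2 differed by 1.17. The calls of Qk and Mbnl2 held without any 1 library, which does not separate the day from that range. Khdrbs3 differed by -0.72 ± 0.18 (adjusted p = 0.00746, and 0.0525 without DIV5 culture 2) and Rbfox1 by -0.63 ± 0.20 (adjusted p = 0.0355, and 0.0548 to 0.144 without any library but DIV5 culture 3). Nova1 (1.05 ± 0.36, adjusted p = 0.0572), Nova2 (-0.54 ± 0.19, adjusted p = 0.0642), Rbfox2 (-0.43 ± 0.17, adjusted p = 0.0971) and U2af2 (-0.02 ± 0.12, adjusted p = 0.951), the factors that the study discusses, were not past the threshold. The first 3 passed without DIV5 culture 3, with adjusted p of 0.00965, 0.00478 and 0.0276, and Nova2 (-0.69) and Rbfox2 (-0.57) also after rescaling. Nova1, Nova2 and Rbfox2 also passed with the culture block (adjusted p 0.0199, 0.0220 and 0.0310). With the library number term they passed too (0.0253, 0.00484 and 0.00308). In the 7 libraries alone they did not pass (0.129, 0.197 and 0.216). Of 18 focal adhesion genes, Tln1, talin, rose by 0.90 ± 0.22 (adjusted p = 0.00746) and Parva by 0.69 ± 0.20 (adjusted p = 0.0208), with 0 lower (median 0.17), against 7.99% of all genes higher. The count of 2 became 5 without DIV5 culture 3 or without the culture 3 libraries of both days. Their calls were lost without DIV3 culture 2 or DIV5 culture 2 (0.0575 to 0.125), and for Parva also without DIV3 culture 3 or DIV5 culture 4.

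Genes of the amino acid stress response were higher at DIV5. In this response, kinases that sense amino acid shortage or unfolded protein raise the translation of the transcription factor ATF4, which then switches on genes for the synthesis and uptake of amino acids through CARE elements. Of 20 genes, 7 rose (against 7.99% of all genes), 0 fell and all 20 differences were positive, with a median of 1.07 against 0.11 for all genes. The letters TGATGNAA, searched on both strands of the 250 bases before each RefSeq start site (GRCm38.p6), occur in 4 of the 18 listed genes that have such a window (22.2%; Aars, Asns, Chac1 and Slc7a11), and in 2.39% of 11256 tested genes and 3.91% of all 27025 genes with a window. A match is a description of the letters and not a measured binding site. The stretches of 3 of them are printed with the matches in capitals (TTGCATCA is the match on the opposite strand), since they include the list's largest rise, a gene with 2 matches, and the gene on which the element is best known.
Chac1, chr2:119350993-119351112, plus strand: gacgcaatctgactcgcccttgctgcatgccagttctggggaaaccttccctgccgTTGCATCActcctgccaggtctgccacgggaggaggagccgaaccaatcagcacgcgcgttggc
Slc7a11, chr3:50443614-50443733, minus strand: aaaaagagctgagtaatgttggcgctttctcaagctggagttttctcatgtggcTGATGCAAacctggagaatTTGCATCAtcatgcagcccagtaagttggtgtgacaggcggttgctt
Asns, chr6:7693210-7693329, minus strand: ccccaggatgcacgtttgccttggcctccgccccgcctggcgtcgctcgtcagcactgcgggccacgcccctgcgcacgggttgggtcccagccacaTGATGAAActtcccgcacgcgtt

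Chac1, which degrades glutathione, was at 11.9, 11.01 and 54.96 TPM at DIV3 and at 168, 136, 77.6 and 72.7 TPM at DIV5 (2.39 ± 0.58, adjusted p = 0.00621). DIV3 culture 3 was already far above the other DIV3 libraries, and the difference between the libraries numbered 1, 2 and 3 was 3.71, 3.52 and 0.49. Slc7a11, the cystine transporter, was at 0.533, 0.660 and 0.907 TPM and then at 4.66, 6.55, 1.58 and 11.7 TPM (1.85 ± 0.45, adjusted p = 0.00579). Asns, asparagine synthetase, was at 43.3, 50.03 and 104 TPM and then at 108, 95.98, 136 and 75.8 TPM, with overlapping groups (0.73 ± 0.30, adjusted p = 0.125). Among the enzymes of serine synthesis, Phgdh, the first one, was at 13.3, 16.8 and 22.8 TPM and then at 48.5, 85.8, 41.8 and 98.3 TPM (1.84 ± 0.33, adjusted p = 0.000497), Psat1 differed by 1.51 ± 0.26 (adjusted p = 0.000365) and Psph, the last enzyme, by 1.10 ± 0.20 (adjusted p = 0.000495). Phgdh and the astrocyte marker Apoe ranked the DIV5 libraries in the same order and the DIV3 libraries in opposite orders. Astrocyte markers rose between the same days, and their part in the rise of this list was not tested. Sesn2, a leucine sensor that restrains mTORC1, was at 6.84, 6.18 and 28.7 TPM and then at 49.7, 62.997, 35.9 and 33.2 TPM (1.92 ± 0.49, adjusted p = 0.00952), and DIV3 culture 3 was again far above the other DIV3 libraries.

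The list's medians between the libraries numbered 1, 2 and 3 were 1.39, 1.66 and 0.29, and its summed level was 1706 to 2914 TPM at DIV3 and 2978 to 3943 TPM at DIV5, without overlap. DIV3 cultures 1 and 2, the low ones, are also the DIV3 libraries with numbers 66 and 67. Within the range of library numbers shared by both days 0 of the 20 passed, with Chac1 at 0.94, Sesn2 at 0.60 and Phgdh at 1.46. The list's median there was 0.35. With a term for the range of library numbers in the fit of all 48 libraries, 8 of 20 were higher. The count was 12 with the culture number as a block and 3 with both. It was 0 in cultures 1 to 3 alone with the block and 0 in the 7 libraries alone. The day and this range can be told apart only through DIV3 culture 3 and the other groups. Without the culture 3 libraries of both days the count was 12 instead of 7. Without DIV3 culture 1 or 2 it was 4, and the calls of Chac1 (adjusted p 0.0621 to 0.0706) and Sesn2 (0.0848 to 0.103) were lost. Those of Phgdh and Slc7a11 held in every such refit.

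With BDNF 1 of 20 was higher and 2 were lower, with a median of -0.16, against background shares of 11.9% higher and 5.71% lower among all genes. With paxillin siRNA 12 of 20 were higher and 0 lower, with a median of 1.14, against 3.92% higher and 1.65% lower. Chac1 differed by -0.84 ± 0.58 with BDNF (adjusted p = 0.331) and by 2.24 ± 0.46 with paxillin siRNA (adjusted p = 0.00292). With BDNF it stood at 85.4, 70.8 and 106 TPM at DIV3 and at 123, 50.3, 36.6 and 22.5 TPM at DIV5, so its DIV3 level was already above all 3 DIV3 libraries without BDNF. The difference between the SC and BDNF changes was 3.23 ± 0.82 for Chac1 (adjusted p = 0.0867), 1.90 ± 0.43 for Asns (adjusted p = 0.0566) and 1.40 ± 0.28 for Psph (adjusted p = 0.0167), and Psph was the single gene of the list past the threshold.

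Activity-regulated genes varied between libraries of the same day. These are immediate early genes that calcium entry and growth factor signalling switch on within minutes, and later targets. Of 17, Egr1 and Ntrk2 were higher at DIV5, a share near the 7.99% of all genes, and 0 were lower, with a median of 1.05 against 0.11 for all genes. Egr1, a zinc finger factor, was at 39.6, 49.1 and 64.3 TPM at DIV3 and at 453, 323, 66.7 and 138 TPM at DIV5 (1.92 ± 0.50, adjusted p = 0.0109). Cultures 1 and 2 were high at DIV5, culture 4 was intermediate and culture 3 was close to the DIV3 libraries. Ntrk2, which encodes TrkB, the BDNF receptor, and is expressed by neurons and astrocytes, was at 30.6, 29.4 and 25.2 TPM and then at 69.7, 92.9, 31.97 and 99.3 TPM (1.22 ± 0.33, adjusted p = 0.0146). The list's medians between the libraries numbered 1, 2 and 3 were 1.46, 1.52 and -0.44, and Fos, the best-known immediate early gene, was at 6.03, 7.16 and 45.2 TPM at DIV3 and at 73.9, 71.99, 9.78 and 43.5 TPM at DIV5 (1.54 ± 0.69, adjusted p = 0.16). Without DIV5 culture 3 the count of 2 became 8, without DIV3 culture 3 it was 4, without DIV3 culture 1 or 2 or DIV5 culture 1 it was 1, and without DIV5 culture 2 it was 0. It was 8 without the culture 3 libraries of both days and 4 with a pseudocount of 0.1. The call of Egr1 was lost without DIV3 culture 1 or DIV5 culture 1 or 2 (adjusted p 0.0625 to 0.0678) and that of Ntrk2 without DIV3 culture 2 or 3 or DIV5 culture 2 or 4 (0.0501 to 0.0805).

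With BDNF, Egr1, Egr2 and Arc fell, from high levels at DIV3 to low levels at DIV5. Egr2 (chr10:67534469-67542188), a zinc finger factor, was at 0.688, 0.911 and 2.09 TPM at DIV3 and at 4.62, 4.48, 1.28 and 5.65 TPM at DIV5 without BDNF, and at 136, 31.2 and 102 TPM and then at 3.796, 3.13, 2.53 and 5.099 TPM with it. The DIV5 levels with and without BDNF overlapped, whereas the DIV3 levels with BDNF were all far above those without. The change was 1.11 ± 0.38 without BDNF (adjusted p = 0.0572) and -4.08 ± 0.38 with BDNF (adjusted p = 6.1e-09), and the changes differed by 5.19 ± 0.54 (adjusted p = 1.21e-07). Egr1 was at 1257, 503 and 1144 TPM and then at 179, 106, 78.6 and 85.3 TPM with BDNF, and Arc, a synaptic protein of immediate early type, at 272, 80.9 and 208 TPM and then at 17.5, 16.6, 18.6 and 19.9 TPM. Without BDNF, Arc was at 4.49, 4.17 and 6.58 TPM and then at 14.03, 16.4, 7.03 and 13.6 TPM (1.14 ± 0.44, adjusted p = 0.0958, and 0.0357 without DIV5 culture 3). The changes differed by 4.99 ± 0.71 for Egr1 (adjusted p = 0.000146), by 4.27 ± 0.63 for Arc (adjusted p = 0.000195) and by 2.07 ± 0.34 for Fam131a (adjusted p = 0.00117).

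Over all genes 14 changes differed between SC siRNA with and without BDNF (0.0982%), each more positive without BDNF, with 1236 at an unadjusted p under 0.05. Egr2, Egr1, Arc and Fam131a held in every refit that left out 1 library. The other 10 were Peg10, Nab2, Galnt7, Slc7a1, Gpr63, Clcn5, Galr1, Psph, Efr3a and Fibcd1, with differences from 1.00 for Efr3a to 3.66 for Peg10. In a fit of the groups compared alone 4 passed, namely Arc, Egr2, Gpr63 and Htr1b. Of the 10 activity-regulated genes with a promoter window, Egr2 holds a CArG box, the element bound by serum response factor, which occurs in 1.31% of the tested genes. Both of its annotated starts have a match, and the stretch before the second is printed because Egr2 carried the largest difference, with the match in capitals.
Egr2, chr10:67537742-67537861, plus strand: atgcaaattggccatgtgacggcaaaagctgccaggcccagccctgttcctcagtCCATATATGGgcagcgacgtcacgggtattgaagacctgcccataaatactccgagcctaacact

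**Figure D4:**
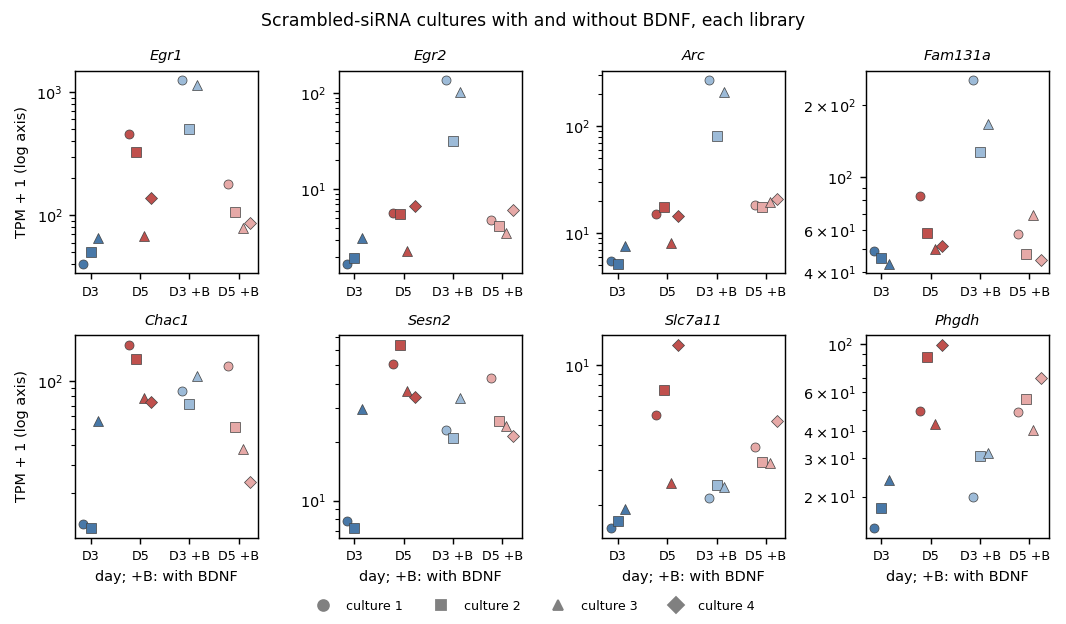
Level of 8 genes in each SC siRNA library without and with BDNF (+B) at DIV3 (D3) and DIV5 (D5), as TPM + 1 on log axes, with a marker shape for each culture. In the upper row the DIV3 libraries with BDNF are the highest (Egr1 503 TPM or more, against at most 64.3 TPM without BDNF), and in the lower row DIV3 culture 3 without BDNF lies above cultures 1 and 2 for Chac1 (55.0 TPM against at most 11.9 TPM).

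Genes of cholesterol synthesis were lower in 1 of 19 in SC siRNA cultures (against 1.48% of all genes), with 0 higher, and in 2 without DIV5 culture 3. All 19 differences were negative (median -0.55). For 8 genes all DIV5 libraries lay below all DIV3 libraries, against 4.38% of all genes. Fdps, farnesyl diphosphate synthase, was at 280.3, 328 and 322 TPM at DIV3 and at 133, 111, 293 and 101 TPM at DIV5 (-1.09 ± 0.31, adjusted p = 0.0215, and 0.0520 to 0.106 without any library but DIV5 culture 3). With BDNF 16 of 19 were lower (median -1.26, against 5.71% of all genes), and with paxillin siRNA 0 of 19 passed (median -0.12, with 1.65% of all genes lower), while 0 of the 19 changes differed between SC siRNA with and without BDNF. Of 11 ERK feedback inhibitors and targets, Etv4, a transcription factor induced by growth factors, was lower (-0.98 ± 0.31, adjusted p = 0.0346, and 0.0553 to 0.178 without DIV3 culture 1 or 2 or DIV5 culture 1, 2 or 4) and 0 were higher (median -0.24), with 2 lower without DIV5 culture 3. With BDNF 6 of 11 were lower, against 5.71% of all genes. Of 11 interferon-stimulated genes 0 passed (median 0.19), with Ifitm3 at 52.3, 17.4 and 6.18 TPM at DIV3 and at 35.4, 31.7, 0.438 and 57.4 TPM at DIV5, so the highest and lowest libraries of both days overlapped. Of 37 clustered histone genes tested, whose transcripts mostly lack a poly(A) tail, H1f5 (2.02 ± 0.50, adjusted p = 0.00762) and H1f2 (1.53 ± 0.43, adjusted p = 0.0189) were higher, against 7.99% of all genes, and 0 were lower (median 0.55). The count of 2 was 6 without DIV5 culture 3, 4 without the culture 3 libraries of both days and 0 to 3 without 1 of the other libraries. The first call was lost without DIV3 culture 2 (0.0586) and the second without DIV3 culture 2 or 3 or DIV5 culture 1 or 2 (0.0524 to 0.106).

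The changes without BDNF were then set beside those with BDNF and with paxillin siRNA, which have libraries of their own at both days. With BDNF 1696 genes were higher (11.9%) and 813 lower (5.71%). Of the 1139 genes that rose without BDNF, 771 also rose with BDNF, 67.7% of the former and 45.5% of the latter, and 3 fell. Of the 211 that fell without BDNF, 84 also fell with it, 39.8% of the former and 10.3% of the latter. With paxillin siRNA 559 genes were higher (3.92%) and 235 lower (1.65%). Of the SC rises 301 were shared (26.4%, and 53.8% of those with paxillin siRNA), and of the SC falls 57 (27.0% and 24.3%). Astrocyte markers were higher in 9 of 12 with BDNF (median 2.87) and in 3 of 12 with paxillin siRNA (median 1.39), and oligodendrocyte lineage markers in 6 of 12 (median 2.67) and 0 of 12 (median 1.67). Microglia markers were higher in 5 of 8 with BDNF and lower in 0 (median 1.72), against 11.9% of all genes higher. None of these lists' members differed in change between SC siRNA and either other condition past the threshold.

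Between SC and paxillin siRNA 0 changes differed past the threshold (0%), with 1054 genes at an unadjusted p under 0.05, 0 also in a fit of the groups compared alone, and 25 without SC DIV5 culture 3. The 4 genes with the smallest p all had an adjusted p of 0.559. They were picked by this p, so their 95% intervals, unadjusted for the choice, were bound to exclude 0 and do not show a difference. Crkl, an adaptor protein that binds tyrosine-phosphorylated paxillin, was at 29.96, 28.9 and 30.5 TPM at DIV3 and at 41.7, 48.2, 30.8 and 53.9 TPM at DIV5 with SC siRNA. It differed by 0.51 ± 0.16 with SC siRNA (adjusted p = 0.0374) and by -0.29 ± 0.13 with paxillin siRNA (adjusted p = 0.172), a difference of 0.80 (95% interval 0.39 to 1.21). Zfp652 differed by 0.21 ± 0.14 and -0.48 ± 0.11, a difference of 0.69 (95% interval 0.34 to 1.04). Bcl2l13, a mitochondrial protein of the BCL2 family, was at 15.6, 16.2 and 18.6 TPM and then at 23.5, 26.6, 21.7 and 27.8 TPM with SC siRNA (0.54 ± 0.10, adjusted p = 0.00104), against 0.00 ± 0.08 with paxillin siRNA, a difference of 0.54 (95% interval 0.27 to 0.80). Aggf1 rose by 0.44 ± 0.10 with SC siRNA (adjusted p = 0.00373) against -0.07 ± 0.08, a difference of 0.51 (95% interval 0.25 to 0.76). Pxn, the target of that siRNA, was at 9.01 ± 1.47 TPM (SD, n = 5) at DIV3 and at 9.17 ± 0.541 TPM (SD, n = 6) at DIV5 with it, differed by 0.03 ± 0.17, and its changes differed by 0.51 (95% interval -0.03 to 1.05). The SC calls of Bcl2l13 and Aggf1 held without any 1 library, and that of Crkl was lost without any library but DIV5 culture 3 (adjusted p 0.0607 to 0.175).

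Culture numbers 1 to 3 occur on both days, and the differences between same-numbered libraries were of unequal size. Over the 1139 genes that rose, the median difference was 0.86 in culture 1, 1.20 in culture 2 and 0.41 in culture 3, and over the 211 that fell it was -0.92, -1.11 and -0.24. These genes were chosen on the same libraries, and the numbers were not taken to pair the days, so these values are a description. Astrocyte markers had medians of 1.93, 2.47 and 1.53 for the 3 numbers, oligodendrocyte lineage markers 1.01, 2.32 and 1.77, and vessel and fibroblast markers -1.92, -0.70 and -1.01. Culture 3 had the smallest astrocyte median and lay between the others for the oligodendrocyte lineage, and it was near 0 or on the other side of it for the amino acid stress response (0.29), activity-regulated genes (-0.44) and cell division (0.54). Leaving out the culture 3 libraries of both days gave 1896 calls (1538 higher, 358 lower).

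**Figure D5:**
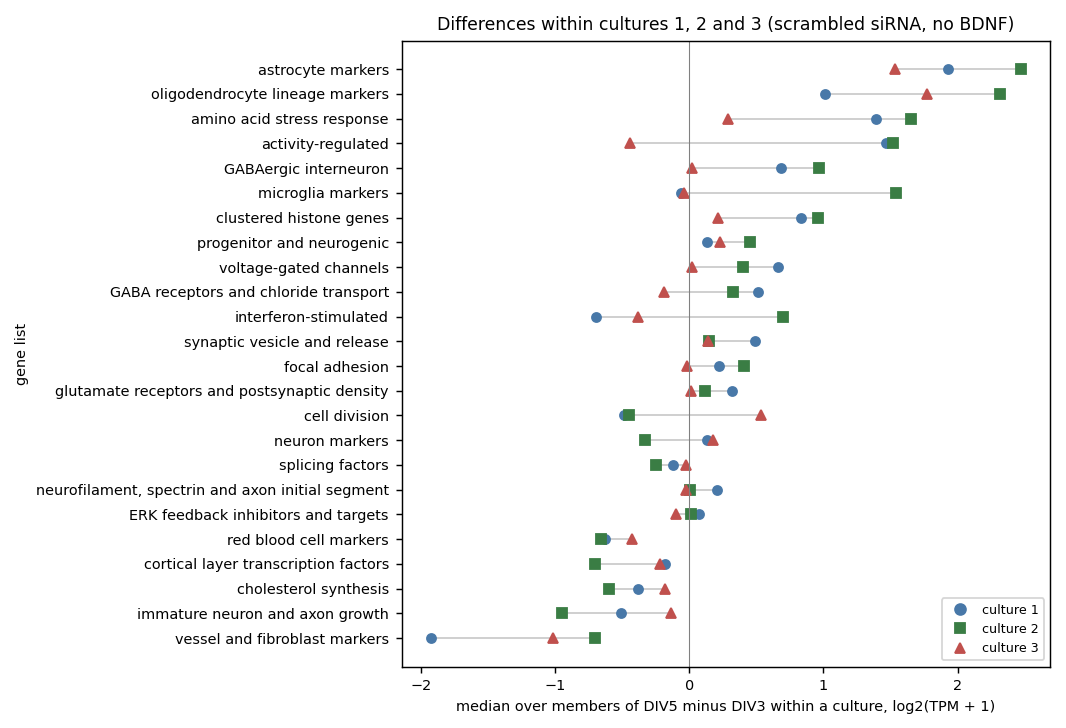
Median difference of each gene list between the DIV5 and the DIV3 library with the same culture number, on the log2(TPM + 1) scale, for cultures 1 (circle), 2 (square) and 3 (triangle). The symbols of a list share a side of 0 for both glial lists and for vessel and fibroblast markers (-1.92, -0.70 and -1.01), and fall on both sides for activity-regulated genes (1.46, 1.52 and -0.44).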

How the data were processed

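RNA of primary mouse cortical cultures and of E15 cortex was measured by short-read mRNA sequencing in 48 libraries. The authors mapped reads with STAR 2.7.10 (GRCm38.p6), quantified genes with RSEM 1.3.3 and deposited TPM for each library. Every library sums to 1000000, so the depth behind a value is unknown. The table holds 39756 genes.

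Values were analysed as log2(TPM + 1) in the 14250 genes whose mean reached 1 TPM. A single limma 3.58.1 model (R 4.3.3, lmFit, eBayes with trend) covered the 13 cortex conditions, p-values were adjusted after Benjamini-Hochberg, and calls were made below 0.05. SC siRNA libraries were compared between DIV3 (n = 3) and DIV5 (n = 4). Differences between this change and those with BDNF or paxillin siRNA were contrasts of the same model. Pxn was also compared by a 2-sided exact permutation test. In simulated data, 200 genes were given a log2 change of 1, of which 66% were called with 6.38% of the calls false, or a change of 2, with 93.5% and 3.61%. The simulated noise was independent between genes and libraries. It held no shift shared by the genes of a library, so these rates need not hold for the calls made here.

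Named genes are the 8 largest rises and 8 largest falls among called genes whose groups do not overlap and reach a mean of 5 TPM, 10 genes of the study, up to 4 called members of each list (otherwise the 2 most abundant), and the 4 genes with the smallest p in each difference of changes. Other genes of the lists were named after their values were seen. The members and lists were chosen with earlier results of these data known. Promoter windows and coordinates come from RefSeq (GRCm38.p6). Alternatives were a pseudocount of 0.1, no filter, median-ratio size factors, fits of the compared groups alone, the culture number as a block, a term for the range of library numbers, and each library left out. The term for the range of library numbers had 4 sets. Paxillin siRNA libraries numbered 1 to 5 formed a set apart from another numbered 1 to 15, although the numbers overlap. Leaving out the culture 3 libraries of both days was chosen after seeing the data. Deviations from the group means correlated between same-numbered libraries by 0.147, 0.0417 and 0.418, so the numbers were not taken to pair the days. Exon inclusion and the hippocampus libraries were not analysed here. Some genes that the naming rule picks are not reported here. Python 3.11.15, numpy 2.4.6, pandas 2.3.3 and matplotlib 3.10.9 were used.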

Additional observations from a re-analysis of the deposited data

Results flagged for a closer look

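The 4 SC siRNA libraries at DIV5 were examined in each of 78 named genes for a library far from the others, and 5 genes held one. Chance gives about 1 in 20 in independent sets, but these genes share the same 4 libraries. Among the SC siRNA libraries at DIV5, culture 3 was far above the others for Fst (123 TPM against 6.94 to 9.21), Vtn (6.15 TPM against 0.415 to 0.988), Neurod2 (757 TPM against 243 to 264) and Fdps (293 TPM against 101 to 133). Culture 4 was far above the others for Mcm7, a replication helicase subunit (188 TPM against 139 to 143).

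The change from DIV3 to DIV5 differed between SC siRNA without and with BDNF by 5.19 for Egr2, 4.99 for Egr1, 4.27 for Arc and 2.07 for Fam131a on the log2(TPM + 1) scale, by limma's contrast of the changes, and in 14 genes in all.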

How the results depend on the processing

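The count of 1350 genes was 1362 with a pseudocount of 0.1, 1153 without a filter and 1212 with size factors. It was 2188 with the culture number as a replicate block, 2283 with a term for the range of library numbers, 269 with both, 162 in cultures 1 to 3 alone with the replicate block, 101 within the shared range of library numbers, 1896 without the culture 3 libraries and 0 in the 7 libraries alone. Leaving out each library gave 594 to 2374. DIV3 cultures 1 and 2 correlated best with DIV5 culture 4 (0.262 and 0.226) and culture 3 with its own number. With BDNF the count of 2509 was 1397 in the compared groups alone and 1421 to 3471 with a library left out. With paxillin siRNA the count of 794 was 1536 in the compared groups alone, 2114 with the replicate block, 1666 with the range term, 1604 with both, and 354 to 975 with a library left out. The 14 differences between SC siRNA with and without BDNF became 31 without a filter, 23 with size factors, 4 in the compared groups alone, 171 with the replicate block, 80 with the range term, 10 with both or with the pseudocount of 0.1, and 5 to 88 with a library left out. Between SC and paxillin siRNA the count was 0 throughout, except for 25 without SC DIV5 culture 3 (0 to 25). The Pxn difference of 0.54 was 0.58 with the pseudocount of 0.1, 0.40 with size factors, 0.51 within cultures 1 to 3 (replicate block; p = 0.25 by the exact permutation test, the smallest it allows) and 0.42 to 0.64 with a library left out.

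Signs turned for genes that were not past the threshold. With size factors these were Ank2 (-0.0096), Pcna (-0.14) and Mcm7 (-0.0084), with the replicate block Pcna (-0.083), with the range term U2af2 (0.0093), Pcna (-0.17), Ifitm3 (1.51) and Bst2 (0.67), in cultures 1 to 3 alone with the replicate block Ank3 (0.026) and Pcna (-0.18), within the shared range Ank2 (-0.12), U2af2 (0.17), Hba-a2 (0.27), Ifitm3 (1.31), Bst2 (1.26) and Zfp652 (-0.0042), and without the culture 3 libraries Pcna (-0.10) and Ifitm3 (0.39). Leaving out each library gave -0.12 to 0.042 for U2af2, -0.82 to 1.10 for Ifitm3, -0.96 to 0.62 for Bst2, -0.18 to 0.15 for Pcna, -0.0087 to 0.30 for Ank2 and -0.25 to 0.026 for Ank3. The cause was not tested. TPM without depth give no counting error.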
